A study of Mus musculus with 16 samples.

Results

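The enzymes that build cholesterol, the proteins that sense sterol and the SREBP-driven genes of fatty acid synthesis were examined in the cerebellum of Npc1-/- mice at 3 weeks of age. The 36 genes were listed by name along the pathway, with earlier results of these data known. All 36 were found by gene name on the Agilent arrays, Msmo1 under its older name Sc4mol, with 75 probes in all. Of these genes, 35 passed the filter on dim probes and were tested among 17996 genes.

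Cerebella came from 8 mice, 4 Npc1-/- and 4 Npc1+/+ (wild type), of the BALB/cNctr-Npc1m1N/J stock on a BALB/c background, bred in house from heterozygotes. The mutation is in the germ line, so every cell of the Npc1-/- mice carries it. Each array received 500 ng of Cy3-labelled total RNA of whole cerebellum. The labels do not state which mouse is on which array, and p-values measure only the spread between these 4 samples per genotype.

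Animal cells make cholesterol from acetyl-CoA by way of mevalonate, isoprenoid diphosphates, squalene and lanosterol. SREBP transcription factors turn these genes on: when sterol in the endoplasmic reticulum is low, SCAP escorts SREBP to the Golgi, where the proteases encoded by Mbtps1 and Mbtps2 release the active part, and when sterol is plentiful the INSIG proteins hold SCAP back. NPC1 moves cholesterol taken up with lipoproteins out of the lysosome. Brain cholesterol is made locally, and oligodendrocytes need much of it while they lay down myelin.

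SREBPs act at short sterol regulatory elements, often beside boxes for the factors NF-Y and Sp1. Promoters of 29 of the 36 genes, 16 of them sterol enzymes, were matched by symbol in a RefSeq table of build GRCm38.p6. The bases just before the start of the 4 enzymes with the lowest unadjusted p values are shown, 250 for Hmgcs1 and 150 for the others, 5′ to 3′ on the strand of the gene. Capitals mark matches to the element core TCACNCCAC and to the NF-Y box CCAAT, which reads ATTGG where it lies on the opposite strand.
Hmgcs1 (chr13:119690101-119690350, plus strand): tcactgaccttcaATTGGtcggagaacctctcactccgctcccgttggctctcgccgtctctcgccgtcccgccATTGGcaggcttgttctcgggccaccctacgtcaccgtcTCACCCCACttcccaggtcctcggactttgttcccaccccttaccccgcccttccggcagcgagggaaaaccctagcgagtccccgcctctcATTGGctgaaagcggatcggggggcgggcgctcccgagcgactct
Idi1 (chr13:8885456-8885605, plus strand): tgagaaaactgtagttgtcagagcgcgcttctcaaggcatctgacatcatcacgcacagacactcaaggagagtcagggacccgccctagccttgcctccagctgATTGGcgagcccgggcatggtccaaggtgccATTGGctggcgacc
Cyp51 (chr5:4104698-4104847, minus strand): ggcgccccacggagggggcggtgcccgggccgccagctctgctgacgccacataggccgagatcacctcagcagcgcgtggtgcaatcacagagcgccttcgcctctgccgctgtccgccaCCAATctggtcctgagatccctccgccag
Msmo1 (chr8:64733579-64733728, minus strand): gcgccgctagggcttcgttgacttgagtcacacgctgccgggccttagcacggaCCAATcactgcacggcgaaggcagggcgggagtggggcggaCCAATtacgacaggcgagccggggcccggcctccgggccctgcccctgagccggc

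Over the whole window, from 250 bases before the start to 50 after it, the Hmgcs1 promoter held the core TCACNCCAC, from position -137 to -129, and no other of the 29 genes did. The core, searched on both strands, was in 1.24% of all 32851 promoters of the table. The looser form TCACNCNAC, which includes every match to the core, was found in Hmgcs1 and in Nsdhl, at positions -205 to -197, and in 2.70% of all promoters. Both forms were searched in this window alone, and elements that depart from these letters would be missed. A promoter without a match may therefore still hold an element. An NF-Y box was present in at least 1 listed promoter of 15 of the 16 sterol enzymes, 93.8%, and of 7 of the 13 other genes, 53.8%, against 41.1% of all 27025 genes in the table. Of the 14 sterol enzymes with a single listed promoter, 13 held one. Acat2 was the sterol enzyme without a match. The Sp1 box GGGCGG was in 14 of 16 sterol enzymes, 87.5%, and in 9 of the 13 other genes, 69.2%, against 38.2% of genes. These matches describe the sequence and show no binding, and base composition was not taken into account.

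**Figure D1:**
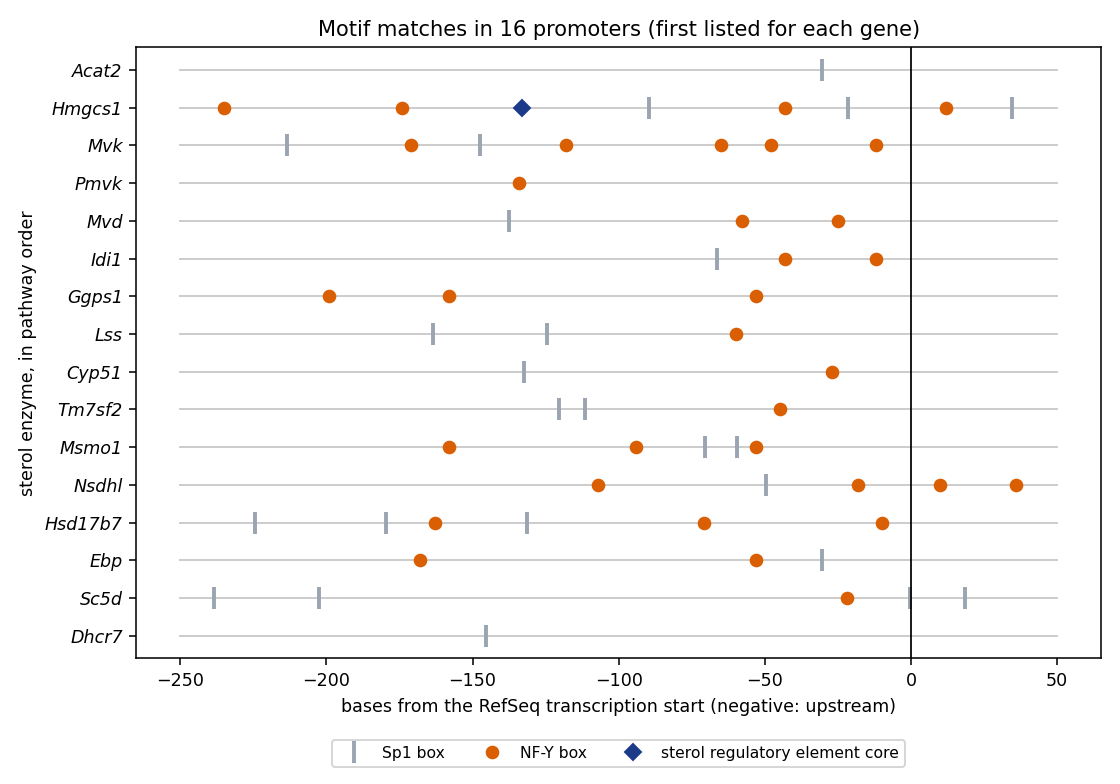
Matches to the NF-Y box (circles), the Sp1 box (bars) and the sterol regulatory element core (diamond) in the first listed promoter of 16 sterol enzymes; the x axis is the distance in bases from the RefSeq start, and each row is a gene in pathway order. Hmgcs1 is the gene with the diamond; Acat2 and the first listed promoter of Dhcr7 hold no NF-Y box, and another listed promoter of Dhcr7 does.

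As a check of the labels, Npc1 itself had levels of -2.60 to -2.32 on Npc1-/- arrays and -0.64 to -0.37 on wild-type arrays. Levels are log2 of the signal relative to the array's 75th percentile, and levels of different probes are not comparable. On the arrays, 22225 to 28152 of 41174 probes were well above background, fewest on wild-type replicate 2. All 6 Purkinje and 7 granule cell markers were above background on every array.

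The comparison of the genotypes asked whether the sterol pathway differs in transcript level when lysosomal cholesterol export is lost. No gene of the 35 passed limma's test over all genes at an adjusted p under 0.05, in either direction, while 0.0333% of all genes were called lower and 0.733% higher. Yet 32 of the 35 had negative log2 fold changes (Npc1-/- minus wild type), or 29 and 30 under the quantile normalizations tried, against 53.4% of all genes tested. All 35 were well above background on all 8 arrays, and 59.5% of the 14770 genes tested under that filter were negative. Of the 19 enzymes from Acat2 to Dhcr7, all 19 were negative, or 17 after quantile normalization, when Pmvk and Ggps1 were just above 0, and 17 to 19 without 1 array. At an unadjusted p under 0.05, 10 genes were lower and none higher, where 2.31% of all genes were lower and 5.08% higher. The submitters' own description names steroid and terpenoid synthesis among the pathways altered in these samples, so these counts are not independent evidence of direction. In whole cerebellum, fewer cells of a type and less RNA per cell cannot be told apart.

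The median log2 fold change was -0.22 over the 35 genes and -0.30 over the 19 sterol enzymes. It was -0.02 over all genes, or -0.04 over genes above background on all arrays. By stage, the medians were -0.33 for 5 mevalonate enzymes, -0.45 for 3 isoprenoid enzymes, -0.30 for 3 enzymes from farnesyl diphosphate to lanosterol, and -0.29 for 8 enzymes from lanosterol to cholesterol. Values nearer 0 were found for 6 sterol-sensing genes (-0.09) and 9 fatty acid genes (-0.14). Whether these stages differ from each other was not tested.

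**Figure D2:**
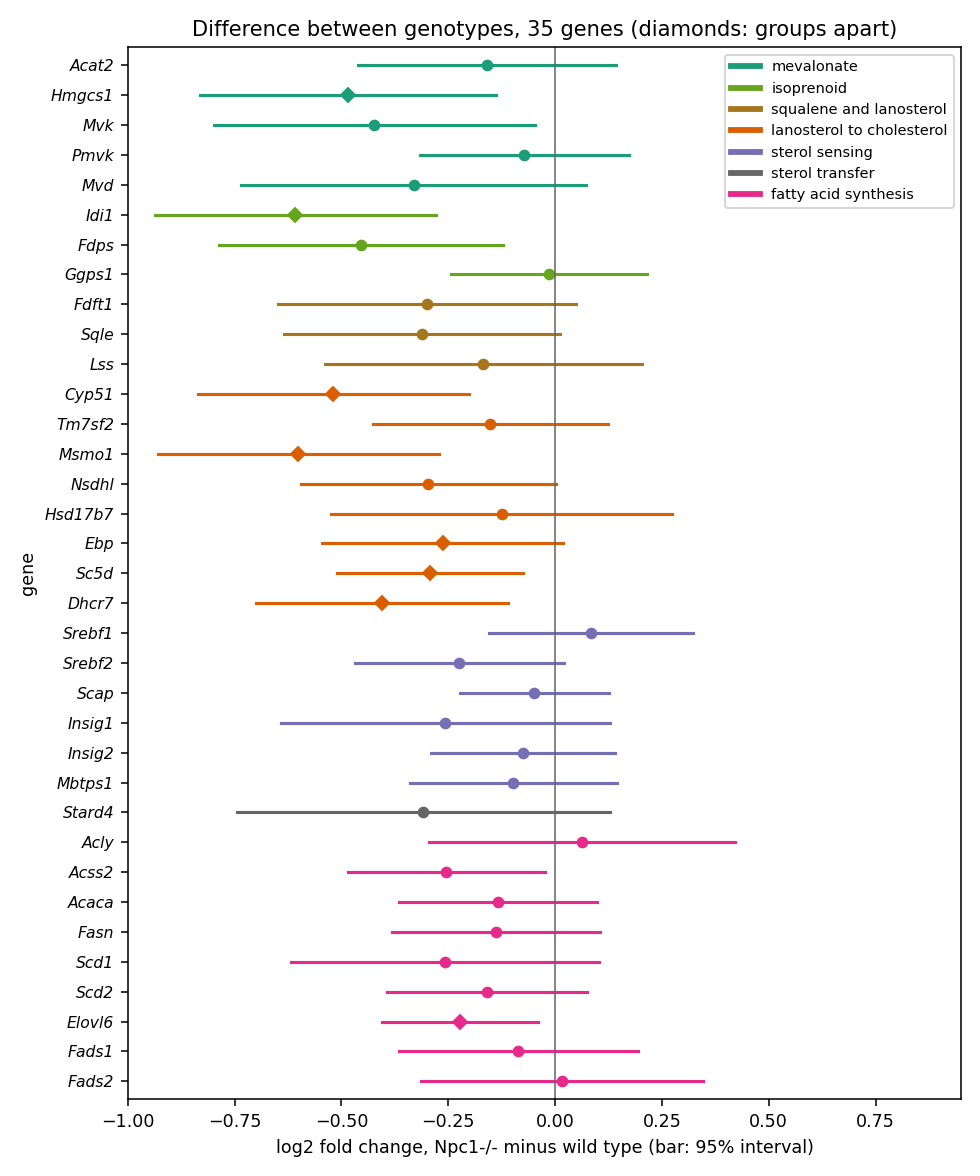
Log2 fold change, Npc1-/- minus wild type, of the 35 tested genes (y axis, pathway order) with its 95% confidence interval from limma; colours give the stage and diamonds mark genes whose 4 Npc1-/- arrays all lie below the 4 wild-type arrays. The longest shifts are those of Idi1 (-0.61), Msmo1 (-0.60) and Cyp51 (-0.52), and the 3 genes on the right of 0 are Srebf1, Acly and Fads2.

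In 8 of the 35 genes every Npc1-/- array lay below every wild-type array, and in none the reverse. Over all genes, 1.95% were separated in the first way and 2.96% in the second. The 8 were Hmgcs1, Idi1, Cyp51, Msmo1, Ebp, Sc5d, Dhcr7 and the fatty acid elongase Elovl6, so 7 of them were sterol enzymes.

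In the mevalonate stage the lowest unadjusted p values belonged to Hmgcs1 and Mvk. Hmgcs1, the synthase that joins acetyl-CoA to acetoacetyl-CoA, had levels of 4.27, 4.28, 4.57 and 4.80 on Npc1-/- replicates 1 to 4 and 4.80, 5.23, 4.89 and 4.94 on wild-type replicates 1 to 4. The groups stood apart, but Npc1-/- replicate 4 lay only 0.00192 below wild-type replicate 1. Its log2 fold change was -0.48 ± 0.15 (SE, n = 4 per genotype), or 1.40-fold lower, with an adjusted p of 0.389 in limma. Of its other 2 probes, the second had -0.43 ± 0.18 and the dimmest, designed on a cDNA clone, 0.16 ± 0.27 (SE), so the probes differed in sign.

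Mvk, mevalonate kinase, had levels of -0.23, -0.07, -0.18 and 0.31 in Npc1-/- and 0.07, 0.54, 0.61 and 0.31 in wild-type cerebellum. Npc1-/- replicate 4 lay above wild-type replicates 1 and 4, so the groups overlapped. The log2 fold change was -0.42 ± 0.16 (SE, adjusted p = 0.587 in limma), and the second probe gave -0.36. The decarboxylase Mvd had -0.33, the thiolase Acat2 -0.16 (-0.04 without wild-type replicate 2) and the phosphomevalonate kinase Pmvk -0.07 (-0.14 on its second probe, and from -0.14 to -0.03 without 1 array). The single Acat2 probe is placed in the files on the strand opposite to the RefSeq gene, as is 1 dim Insig2 probe, while the other 57 of 59 probes with both strands known lay on the gene's own strand.

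Idi1, the isomerase that balances the 2 isoprenoid building blocks, had the lowest p of the 35 genes. Its levels were 1.52, 1.86, 2.01 and 2.10 in Npc1-/- and 2.30, 2.44, 2.64 and 2.53 in wild-type cerebellum. All Npc1-/- arrays were lower, with replicate 1 the lowest. The log2 fold change was -0.61 ± 0.14 (SE, 95% interval -0.94 to -0.28), 1.52-fold lower, with an adjusted p of 0.162 in limma over all genes. The second Idi1 probe gave -0.54. With limma's array weights the adjusted p of Idi1 was 0.0464 at a log2 fold change of -0.70, the one call of a listed gene in any fit, and over all alternatives its adjusted p ran up to 0.531.

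Fdps, which makes farnesyl diphosphate, had levels of 1.86, 2.21, 2.16 and 2.44 in Npc1-/- and 2.36, 2.74, 2.74 and 2.64 in wild-type cerebellum. The highest Npc1-/- array was above the lowest wild-type array. Its log2 fold change was -0.45 ± 0.15 (SE, adjusted p = 0.404 in limma), while a dimmer probe on a cDNA clone gave 0.10 ± 0.23 (SE). Ggps1, the synthase of geranylgeranyl diphosphate, lies on the branch toward protein prenylation. It had a log2 fold change of -0.01 ± 0.10 (SE), with -0.15 and -0.11 on 2 dimmer probes, and its sign turned in several fits.

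Sqle, the squalene epoxidase, and Fdft1, squalene synthase, commit farnesyl diphosphate to sterols. Sqle had levels of 2.24, 2.40, 2.52 and 2.81 in Npc1-/- and 2.63, 2.99, 2.85 and 2.74 in wild-type cerebellum. Fdft1 had 1.75, 1.89, 1.86 and 2.29 in Npc1-/- and 1.95, 2.46, 2.29 and 2.29 in wild-type cerebellum. In both genes Npc1-/- replicate 4 lay within the wild-type range and the other 3 Npc1-/- arrays below it. The log2 fold changes were -0.31 ± 0.14 for Sqle and -0.30 ± 0.15 for Fdft1 (SE), at adjusted p values of 0.692 and 0.752 in limma. Lss, which closes the rings of lanosterol, had -0.17 on its brightest probe, designed on a clone, with -0.28 to -0.06 without 1 array, and -0.32 and -0.37 on the probes designed on its RefSeq transcript.

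**Figure D3:**
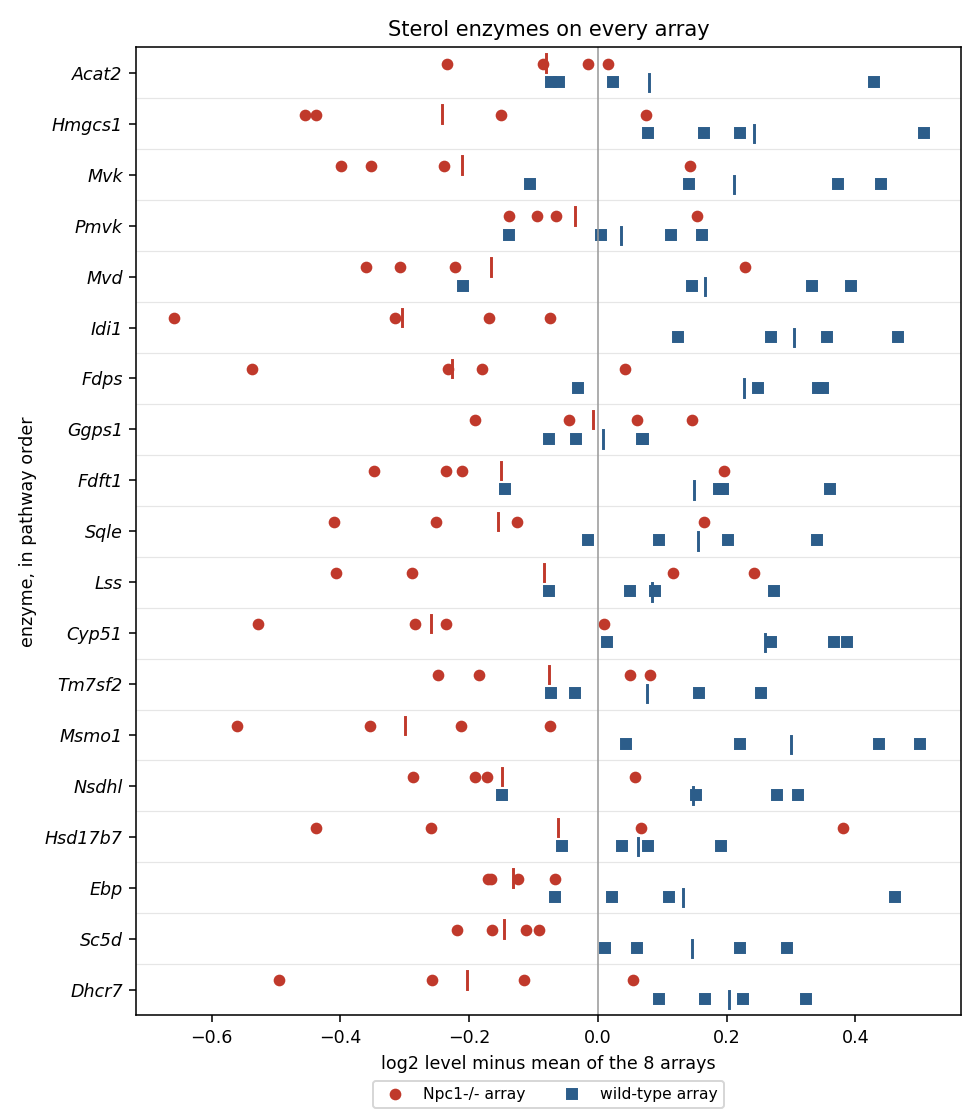
Level of each of the 19 sterol enzymes (y axis, pathway order) on every array, as the log2 difference from the mean of the 8 arrays (x axis); circles are Npc1-/- arrays, squares wild-type arrays and short vertical lines the means of 4. The circles lie apart from the squares in 7 rows: Hmgcs1, Idi1, Cyp51, Msmo1, Ebp, Sc5d and Dhcr7.

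From lanosterol to cholesterol, 5 of the 8 enzymes had groups that stood apart. Cyp51 and Msmo1 remove the methyl groups at the start of this stretch. Msmo1, the sterol C4-methyl oxidase, had levels of 3.22, 3.43, 3.57 and 3.71 in Npc1-/- and 3.83, 4.22, 4.28 and 4.00 in wild-type cerebellum. Every Npc1-/- array was below every wild-type array. Its log2 fold change was -0.60 ± 0.14 (SE, 95% interval -0.93 to -0.27), 1.52-fold lower, with an adjusted p of 0.172 in limma, from a single probe at chr8:63138214-63138273 in the mm7 build of the files.

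Cyp51, the lanosterol demethylase, had levels of -0.02, 0.27, 0.23 and 0.52 in Npc1-/- and 0.52, 0.88, 0.78 and 0.90 in wild-type cerebellum. The nearest arrays of the groups, Npc1-/- replicate 4 and wild-type replicate 1, differed by 0.00496. The log2 fold change was -0.52 ± 0.14 (SE, adjusted p = 0.25 in limma). Its 2 other probes gave -0.48 and -0.43.

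Further along, Dhcr7, the last reductase of the pathway to cholesterol, had levels of 2.01, 2.25, 2.40 and 2.57 in Npc1-/- and 2.61, 2.83, 2.68 and 2.74 in wild-type cerebellum. The 4 wild-type arrays lay close together and the Npc1-/- arrays spread below them. Its log2 fold change was -0.41 ± 0.13 (SE, adjusted p = 0.403 in limma), and -0.35 on its second probe. Sc5d, which introduces the C5 double bond, had levels of 1.61, 1.72, 1.67 and 1.74 in Npc1-/- and 1.84, 2.05, 2.12 and 1.89 in wild-type cerebellum. Its Npc1-/- arrays were lower and close together, with a log2 fold change of -0.29 ± 0.10 (SE, adjusted p = 0.428 in limma), and -0.20 on its second probe.

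Ebp, the sterol isomerase, had levels of 3.95, 3.86, 3.85 and 3.90 in Npc1-/- and 4.13, 4.04, 4.48 and 3.96 in wild-type cerebellum. The Npc1-/- arrays varied little (SD 0.05), and the nearest arrays of the groups, Npc1-/- replicate 1 and wild-type replicate 4, differed by 0.00117. The log2 fold change was -0.26 ± 0.12 (SE, adjusted p = 0.725 in limma). It was -0.15 without wild-type replicate 3, the highest array, and -0.14 with array weights. The sterol dehydrogenase Nsdhl had -0.30 on its brightest probe, -0.33 and -0.30 on the next 2, and 0.26 ± 0.58 (SE) on a clone probe that was above background on 4 of 8 arrays. The sterol reductase Tm7sf2 had -0.15, and the ketoreductase Hsd17b7 had -0.13 and -0.24 on its 2 probes.

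Among the sterol-sensing genes no group stood apart. Srebf2, which encodes the SREBP of the cholesterol genes, had levels of 3.91, 3.87, 4.14 and 4.06 in Npc1-/- and 4.09, 4.25, 4.39 and 4.14 in wild-type cerebellum. Insig1, itself a target of SREBP, had levels of -1.12, -1.21, -1.08 and -0.51 in Npc1-/- and -0.90, -0.57, -0.83 and -0.58 in wild-type cerebellum. In Srebf2 the overlap came from Npc1-/- replicate 3, and in Insig1 replicate 4 was the highest array of all 8. Their log2 fold changes were -0.22 ± 0.11 and -0.26 ± 0.17 (SE), at adjusted p values of 0.735 and 0.752. in limma The second Insig1 probe gave -0.33, and the 3 dimmer Srebf2 probes gave -0.03, -0.32 and -1.08, the last being above background on 5 of 8 arrays.

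Srebf1, the SREBP gene linked mainly to fatty acids, had a log2 fold change of 0.08 ± 0.10 (SE). Scap had -0.05 ± 0.08, Insig2 -0.08 ± 0.09 and Mbtps1 -0.10 ± 0.11 (SE). Dimmer probes gave -0.000197 for Insig2 and -0.13 and 0.03 for Mbtps1, and the third Insig2 probe was not well above background on any array. Mbtps2 was not tested: of its 3 probes 1 was well above background, on 2 wild-type arrays and on no Npc1-/- array. Stard4, a cytosolic sterol carrier and SREBP target, had levels of 0.20, 0.22, 1.02 and 0.45 in Npc1-/- and 1.03, 0.67, 0.74 and 0.68 in wild-type cerebellum. Npc1-/- replicate 3 reached the wild-type range and the other 3 did not. The log2 fold change of Stard4 was -0.31 ± 0.19 (SE, adjusted p = 0.752 in limma), with -0.38 and -0.36 on its other 2 probes.

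In fatty acid synthesis, 7 of 9 genes were negative, or 6 after normexp correction with quantile normalization and 9 with a block for slide or for scan day, without Npc1-/- replicate 4 or without wild-type replicate 3, and 2 had an unadjusted p under 0.05. Elovl6, which lengthens palmitate, had levels of 2.62, 2.60, 2.57 and 2.66 in Npc1-/- and 2.80, 2.93, 2.78 and 2.84 in wild-type cerebellum. The groups stood apart with little spread in either. The log2 fold change was -0.22 ± 0.08 (SE, adjusted p = 0.521 in limma). Acss2, which makes acetyl-CoA from acetate, had levels of 1.01, 0.96, 0.96 and 1.20 in Npc1-/- and 1.19, 1.43, 1.33 and 1.20 in wild-type cerebellum. Npc1-/- replicate 4 lay at the lower end of the wild-type range, and the log2 fold change was -0.25 ± 0.10 (SE, adjusted p = 0.602 in limma), with -0.27 and -0.46 on 2 dimmer probes.

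The other 7 fatty acid genes had log2 fold changes between -0.26 and 0.06. The desaturases Scd1 and Scd2 had -0.26 and -0.16, and whether their probes read each other's transcript was not tested. Fatty acid synthase, Fasn, had -0.14 and, on its second probe, -0.15. Acetyl-CoA carboxylase, Acaca, had -0.13 on its brightest probe and -0.35, -0.11 and 0.11 on 3 dim ones. The desaturases of polyunsaturated fatty acids, Fads1 and Fads2, had -0.09 and 0.02, and the citrate lyase Acly 0.06.

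Over every probe of the 36 genes, 69 of 75 passed the filter and were tested with all 27181 probes of the array. None passed, where 0.522% of all probes did, and 61 of the 69 had a negative log2 fold change, against 52.0% of all probes. At an unadjusted p under 0.05 there were 20, each lower in Npc1-/- mice, where 2.16% of all probes were lower and 4.35% higher. Probes of the same gene were measured on the same arrays, so the probe counts are not evidence apart from the gene counts. Of 21 genes with several tested probes, 5 had probes of both signs: Hmgcs1, Fdps, Nsdhl, Mbtps1 and Acaca. For Idi1 and Hmgcs1 the files' mm7 positions, chr2:53701852-53701911 and a stretch of the unplaced sequence, disagree with chromosome 13 in the RefSeq table. Whether their probes also read a related copy was not tested, and no exon or untranslated region was assigned to probes, since no annotation of mm7 was used here.

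The arrays of a genotype differed from each other along the whole pathway. Relative to the mean of the 8 arrays, the median level of the 19 sterol enzymes was -0.35, -0.24, -0.16 and 0.06 on Npc1-/- replicates 1 to 4 and 0.01, 0.32, 0.19 and 0.14 on wild-type replicates 1 to 4. The genotypes therefore overlapped through Npc1-/- replicate 4 and wild-type replicate 1. Npc1-/- replicate 1 was the lowest of the 8 arrays for 12 of the 19 enzymes and replicate 2 for 6, and no wild-type array was the lowest for any. Wild-type replicate 2 was the highest for 10 enzymes and replicate 3 for 6. Npc1-/- replicate 4 was the highest of its genotype for 15 of 19, and wild-type replicate 1 the lowest of its own for 14.

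Markers of other cell types were set beside these values. All 15 markers of myelinating oligodendrocytes had negative log2 fold changes, with a median of -0.59; none was called, 13 had an unadjusted p under 0.05 and in 10 the groups stood apart. The summed signal of the 15, in units of the array's 75th percentile, ran from 263 to 321 on Npc1-/- arrays and from 350 to 469 on wild-type arrays, and none of the 15 was at background. Their median level relative to the 8 arrays was -0.45, -0.29, -0.41 and -0.05 on Npc1-/- replicates 1 to 4 and 0.03, 0.70, 0.17 and 0.35 on wild-type replicates 1 to 4. By list median, Npc1-/- replicate 1 was the lowest and wild-type replicate 2 the highest array for the sterol enzymes and the myelin markers. The same held for the oligodendrocyte precursor markers (-0.21 and 0.42), but not for each gene of that list. Wild-type replicate 1 was the lowest array for Pdgfra and wild-type replicate 3 for Cspg4. In both the sterol enzyme and the myelin lists, Npc1-/- replicate 4 was the highest of its genotype and wild-type replicate 1 the lowest of its own. The other arrays stood in different orders. Npc1-/- replicate 3 was at -0.16 for sterol enzymes, above Npc1-/- replicate 2, but below it for myelin markers. Wild-type replicate 3 was above wild-type replicate 4 for sterol enzymes (0.19 and 0.14) but below it for myelin markers (0.17 and 0.35). Without Npc1-/- replicate 1 the sterol enzyme median was -0.27, and without wild-type replicate 2 it was also -0.27. The part of the myelin signal in the sterol values was not tested.

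The median log2 fold changes were -0.26 for 7 granule cell markers and -0.22 for 6 Purkinje cell markers. They were -0.22 for 5 oligodendrocyte precursor markers and 0.03 for 8 markers of astrocytes and Bergmann glia. No gene was called in any of these 4 lists. Of the 8 astrocyte markers 3 were negative, and Gfap stood out at 1.08 ± 0.19 (SE, adjusted p = 0.0517 in limma). Every Npc1-/- array lay above every wild-type array for Gfap (1.81 to 2.15 against 0.61 to 1.45). In the precursor list Sox10 (-0.60), Olig1 (-0.38) and Olig2 (-0.22) were negative, while Pdgfra had 0.03 and Cspg4 0.10. All 7 granule cell markers were negative, 2 with an unadjusted p under 0.05, as were all 6 Purkinje cell markers, none with such a p. The genotypes overlapped in both lists. The Purkinje median on single arrays ran from -0.18 to 0.0025 in Npc1-/- and from -0.15 to 0.45 in wild type, highest on wild-type replicate 3. The granule cell median ran from -0.23 to 0.04 in Npc1-/- and from -0.06 to 0.22 in wild type. For 6 markers of choroid plexus, a tissue beside the cerebellum, the median level relative to the 8 arrays was -1.69 on Npc1-/- replicate 3, against 0.22 to 0.81 on the other Npc1-/- arrays and -0.14 to 0.40 on wild-type arrays. Neurod6, a gene of forebrain neurons named after its values were seen, had levels of -4.67, -4.05, -3.93 and -3.87 on Npc1-/- replicates 1 to 4 and -3.90, -2.19, -3.70 and -3.78 on wild-type replicates 1 to 4, so wild-type replicate 2, the highest array for sterol enzymes, stood above the rest. Without Npc1-/- replicate 3 the sterol enzyme median was -0.29. Of 8 microglial markers 4 rose by limma's adjusted p under 0.05, Trem2, Tyrobp, Lyz2 and Cd68, and the list median was 1.02. On single arrays the microglial median ran from 0.45 to 0.80 in Npc1-/- and from -0.76 to -0.52 in wild-type cerebellum, with Npc1-/- replicate 4 the highest. Their part in the sterol values was not tested.

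**Figure D4:**
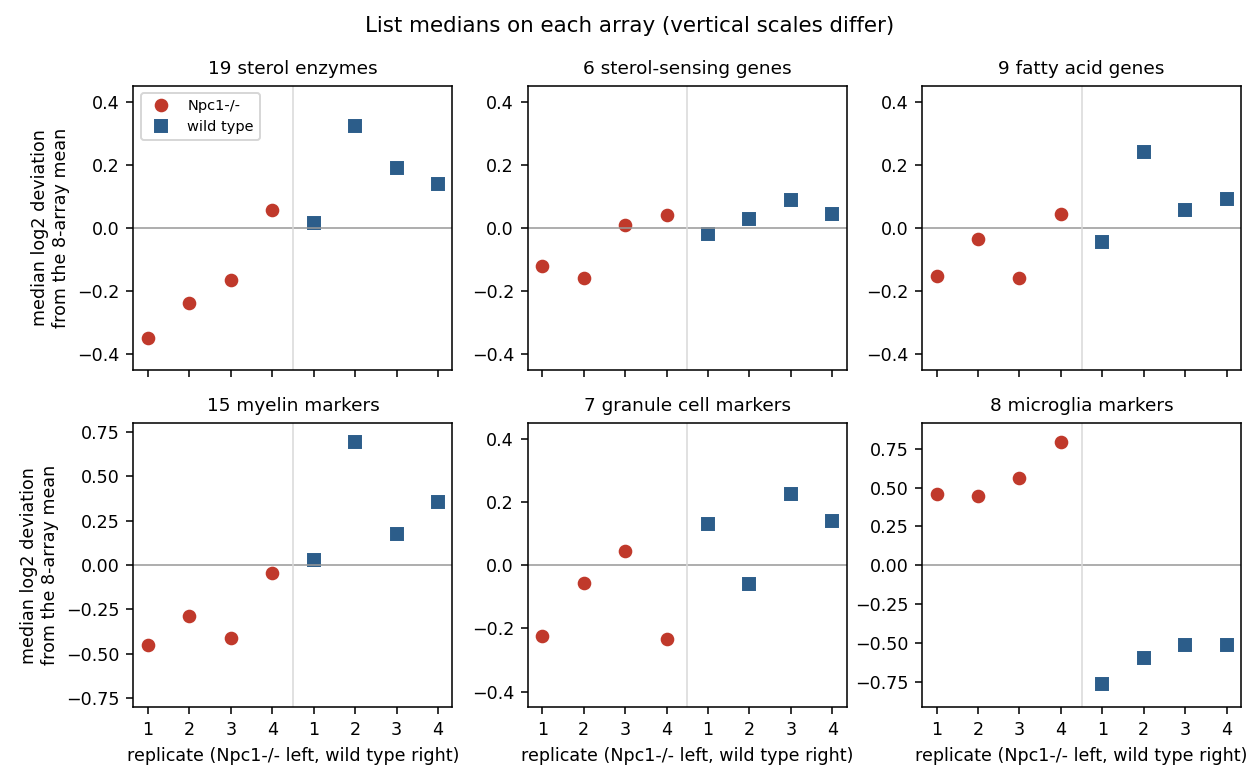
Median log2 deviation from the 8-array mean (y axis, scales differ between panels) on each array (x axis; Npc1-/- replicates left, wild-type replicates right) for sterol enzymes, sterol-sensing genes, fatty acid genes and 3 marker lists. Npc1-/- replicate 1 is lowest and wild-type replicate 2 highest in both the sterol enzyme panel (-0.35 and 0.32) and the myelin panel (-0.45 and 0.70).

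The arrays lay on 4 slides, of which 3 held both genotypes, each with 1 wild-type array. Within slides 2, 3 and 4 the median difference of the 19 sterol enzymes, Npc1-/- minus wild type, was -0.42, -0.43 and -0.11, with 19, 18 and 16 of the 19 negative. It was thus smaller within slide 4, which held Npc1-/- replicate 3 and wild-type replicate 1. Idi1 had -0.78, -0.64 and -0.29 within these slides, Msmo1 -0.85, -0.75 and -0.26, Cyp51 -0.51, -0.63 and -0.30, and Hmgcs1 -0.60, -0.70 and -0.23. In these 4 every Npc1-/- array lay below every wild-type array, so each had to be negative within every slide. The slides are thus no further evidence for their direction. The 16 other genes had medians of -0.18, -0.22 and -0.05. The 2 scan days split the arrays as slide 3 against the rest, and with the day as a block the sterol enzyme median was -0.35.

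**Figure D5:**
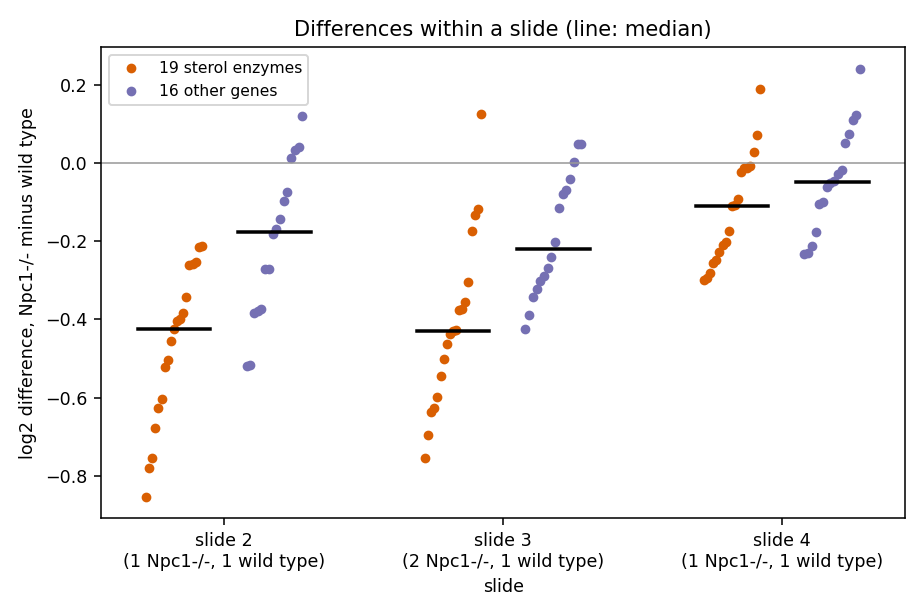
Log2 difference, Npc1-/- minus wild type, of each gene within the 3 slides that held both genotypes (x axis; circles are genes, the line is the median), for the 19 sterol enzymes and the 16 other tested genes. The sterol enzyme medians are -0.42, -0.43 and -0.11.

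Further genes of the pathway, 39 partner and branch enzymes, regulators and other SREBP targets, were described in the same way. Of these, 37 were tested (Pdss2 and Scd4 failed the filter) and none was called. The median log2 fold change was -0.05 and 29 of 37 were negative, against 53.4% of all genes tested. Within slides 2, 3 and 4, 31, 18 and 16 of the 37 were negative, with medians of -0.13, 0.006 and 0.03. Aacs, which activates acetoacetate for lipid synthesis, had -0.41 ± 0.12 (SE, adjusted p = 0.304 in limma), the fatty acid elongase Elovl1 -0.38 and the desaturase Scd3 -0.26, all with an unadjusted p under 0.05. In the other direction Acacb, the carboxylase linked to fatty acid oxidation, had 0.45 ± 0.11 (SE, adjusted p = 0.186 in limma). Soat1, which stores cholesterol as esters, had 0.39 ± 0.10 (SE, adjusted p = 0.26 in limma). Tmem97, a sterol-regulated partner of NPC1, had -0.32 and the reductase Lbr, which shares a step with Tm7sf2, had -0.08. The genes named from this list were chosen after their values were seen.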

How the data were processed

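The intensity values were deposited as Agilent Feature Extraction 9.5 output, per the submitters' processing notes, and their headers record background subtraction and detrending within the array. Flags for spots above background, saturated or outlying are deposited beside them, and no non-control spot was saturated. Here each processed signal was divided by the array's 75th percentile and put on the log2 scale, with outlier spots (74 to 115 an array) left out and spots of a probe averaged. A probe was kept if at least 4 of 8 arrays measured it well above background, and the brightest stood for its gene. Gene symbols were brought up to date with the RefSeq table of GRCm38.p6 (22951 probes by accession, 6659 by symbol, 3109 by synonym; 8455 kept the files' name).

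The test was limma's (version 3.58.1, R 4.3.3), two-sided, with eBayes moderation and genotype alone in the design, with Benjamini-Hochberg adjustment over all genes, and tested on simulated data. The members and lists were chosen with earlier results of these data known. Per-array values are given for members whose groups do not overlap and for the 2 of each stage with the lowest unadjusted p. Alternatives were 2 other normalizations, other filters and probe rules, slide, scan-day and replicate blocks, array weights, and leaving out each array. Replicate numbers did not pair the arrays (correlations of same-numbered deviations from -0.44 to 0.20). The Illumina arrays were not used here, since their probes are numbered without gene names. Some genes are not reported here. Tables were summarised in Python 3.11.15, and plots were drawn with matplotlib 3.10.9. The number of arrays, 4 per genotype, limits the precision.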

Additional observations from a re-analysis of the deposited data

How the results depend on the processing

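The median of the sterol enzymes stayed negative in all fits tried, from -0.41 to -0.27 without 1 array, at -0.26 after normexp correction with quantile normalization, -0.25 after quantile normalization alone, -0.25 as a mean over probes, -0.32 with the slide as a block and -0.37 with array weights. It was -0.11 within slide 4, and the median of all 35 genes was -0.37 within slide 2 and -0.092 within slide 4. Without 1 array, 30 to 34 genes were negative and the median of all was -0.27 to -0.19. No fit called a gene except that with array weights (1 lower, Idi1); the replicate block left 0 called, with a sterol enzyme median of -0.30.

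Of 595 single-gene values under the alternatives, 574 kept their sign and their side of the threshold, and 20, in 8 genes close to 0, changed sign. The sizes were less stable: leaving out some array moved the value of 20 genes, 7 of them sterol enzymes, more than 1.5 times. Quantile normalization gave 0.000977 for Pmvk, 0.00301 for Ggps1 and 0.0311 for Scap. Normexp correction with it gave 0.00865 for Mbtps1 and 0.0422 for Fads1. Array weights gave 0.0104 for Ggps1 and -0.0391 for Fads2. The slide block gave -0.0465 for Acly and -0.00268 for Fads2, and the scan-day block -0.0382 and -0.053. Without 1 array, Ggps1 ranged from -0.0657 to 0.0465, Hsd17b7 from -0.27 to 0.000148, Acly from -0.00973 to 0.17 and Fads2 from -0.0835 to 0.098. The cause was not tested.

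Over all genes, 138 were called, against 38 with the slide block, 27 with the replicate block, 280 with array weights, 59 without the filter, 87 after quantile normalization, 89 over probes above background on all arrays and 55 to 148 without 1 array. The planned Illumina alternative was not run, because its probes carry no gene names. No group of 4 arrays had an outlying array in any of the 35 genes by Dixon's test. Dim probes, such as those of Mbtps2, limit what can be read from second probes.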
